A study of Mus musculus with 13 samples.

Results

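The genes described here encode the oxidative phosphorylation machinery of the mitochondrial inner membrane, in mouse regulatory T cells (Tregs) and their thymic precursors. A gene was a member when its symbol named a nuclear subunit, isoform or assembly factor of complex I, III, IV or V (Nduf followed by a, b, c, s or v, Cox followed by 4 to 8, Uqcr or Atp5), or when it was a protein gene of mitochondrial DNA (mt-), and when its identifier stood in the count tables of all 3 stages. This gave 101 members of 22048 shared genes. Of these, 88 are nuclear: 29 accessory and 7 core subunits of complex I, 7 complex I assembly factors, 8 genes of complex III, 20 of complex IV, 15 of complex V, and Atp5s and Atp5sl, which carry the complex V prefix but are not subunits. The other 13 are the protein genes of mitochondrial DNA, of which 7 belong to complex I, 1 to complex III, 3 to complex IV and 2 to complex V. A further 28 names that fitted the pattern in the pre-Treg table were left out for lack of a row in the other tables, 24 of them mitochondrial ribosomal or transfer RNAs and 4 of them pseudogenes.

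Messenger RNA was measured by RNA-seq in C57BL6/J mice carrying the Foxp3rfp allele, a fluorescent reporter of Foxp3, either without c-Rel (genotype cRel-/-Foxp3rfp, here KO) or with it (genotype cRel+/+Foxp3rfp, here WT). c-Rel is a transcription factor of the NF-kappaB family, encoded by Rel and needed for normal Treg development. Pre-Tregs from the thymus gave 3 KO and 2 WT libraries, de novo Tregs from the thymus 2 KO and 2 WT libraries, and splenic Tregs (labelled tTreg) 2 KO and 2 WT libraries. Cells were enriched magnetically for CD4 and then sorted, and the labels do not say whether animals were pooled, how old they were, or whether replicates came from separate mice, so the p-values measure the spread between these libraries, which may be technical. The labels give the KO by genotype alone and name no Cre.

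Complex I oxidises NADH, complex III passes electrons from ubiquinol to cytochrome c, complex IV reduces oxygen, and complex V (ATP synthase) makes ATP from the proton gradient that the other complexes build. The protein genes of mitochondrial DNA supply hydrophobic core subunits, are transcribed as long polycistronic RNAs from both strands by a dedicated polymerase, and are translated on mitochondrial ribosomes, whereas all other subunits are made in the cytosol and imported, so each of complexes I, III, IV and V needs both genomes. Tregs are known for relying on oxidative phosphorylation more than activated conventional T cells do, and Foxp3 is known to favour it.

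Levels are given as CPM, each library's counts scaled to the same total over the shared genes. Library totals were 16133876, 29866696 and 16809052 counts in KO pre-Treg replicates 1, 2 and 3, 13656304 and 13698722 counts in WT pre-Tregs, 25122095 to 28235996 counts in de novo Tregs and 32291272 to 35114430 counts in splenic Tregs. Foxp3, the defining Treg gene, lay between 658 and 894 CPM in the libraries of both Treg stages and between 22.2 and 108.7 CPM in pre-Tregs, and Cd4 lay between 620 and 1057 CPM throughout. Rel, counted over the whole gene, was 61.6, 54.5 and 71.1 CPM in KO and 108.5 and 106.9 CPM in WT pre-Tregs. It was 87.3 and 94.6 CPM in KO and 99.1 and 96.7 CPM in WT de novo Tregs, and 42.1 and 44.4 CPM in KO and 45.5 and 54.9 CPM in WT splenic Tregs. The labels do not say which part of Rel, if any, is deleted, so what the whole-gene count shows of the KO is not known. The Rel difference passed the test at none of the stages (edgeR adjusted p = 0.552, 0.665 and 0.521). KO pre-Treg replicate 1 held only even counts (19440 of 19440 genes above 0, against 46.7 to 49.98% of such genes in the other libraries), and KO pre-Treg replicate 2 stood apart from the other pre-Treg libraries, as described with the values it touches.

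Several members share sequence with other genes, which limits what their counts can show, and the following stretches show how closely. A block of mitochondrial DNA with 6 member genes (MT:7013-10173) has a near-identical nuclear copy on mouse chromosome 1 (chr1:24611535-24616197, minus strand, GRCm38, 7 annotated copy genes in GENCODE M21, which reach into copies of parts of mt-Co1 and mt-Nd4). The first 150 bases of mt-Nd3 (MT:9459-9608, plus strand) and of its copy Gm28438 (chr1:24612970-24613119, minus strand) differ at 1 base, T3C (mitochondrial base, position from 1 at the start of mt-Nd3, copy base), shown in capitals.
mt-Nd3: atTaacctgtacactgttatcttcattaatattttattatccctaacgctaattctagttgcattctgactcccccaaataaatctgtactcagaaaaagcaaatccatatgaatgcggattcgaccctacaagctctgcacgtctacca
Gm28438: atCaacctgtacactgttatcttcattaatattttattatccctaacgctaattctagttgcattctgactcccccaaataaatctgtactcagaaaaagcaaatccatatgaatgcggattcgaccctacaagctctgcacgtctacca
By contrast, the closest copy of mt-Nd2, Gm13339 on chromosome 2, is 96.667% identical over 510 bases, and the 150 bases compared here (MT:4442-4591, plus strand, against chr2:22590384-22590533, minus strand) differ at 4 positions, in capitals.
mt-Nd2: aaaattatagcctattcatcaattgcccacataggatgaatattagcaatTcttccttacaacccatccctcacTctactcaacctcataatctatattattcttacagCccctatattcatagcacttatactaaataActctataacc
Gm13339: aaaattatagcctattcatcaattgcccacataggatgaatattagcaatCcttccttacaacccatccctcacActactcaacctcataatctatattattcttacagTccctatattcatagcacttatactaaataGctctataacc
The nuclear member Atp5g2, a c subunit of the complex V rotor, has a copy of its whole 441-base annotated transcript in Gm10175 on chromosome 7, and the 150 coding bases shown (exons joined, chr15:102663017-102665091, minus strand, against chr7:23946795-23946944, minus strand) do not differ.
Atp5g2: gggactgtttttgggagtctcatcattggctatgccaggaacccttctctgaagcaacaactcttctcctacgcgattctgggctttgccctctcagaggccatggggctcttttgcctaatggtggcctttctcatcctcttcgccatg
Gm10175: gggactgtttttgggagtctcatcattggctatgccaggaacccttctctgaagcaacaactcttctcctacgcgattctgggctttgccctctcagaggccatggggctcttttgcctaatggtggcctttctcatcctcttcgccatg

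Low counts went together with these copies. Of the 13 mitochondrial genes, mt-Co2, mt-Co3, mt-Atp6, mt-Nd3 and mt-Nd4l had 97.6 to 99.9% of their 100-base windows in another annotated gene, and their median levels over the 13 libraries were 0 to 4.38 CPM per kilobase. Other mitochondrial genes were among the most abundant transcripts: mt-Cytb, the cytochrome b of complex III, had 1450 CPM per kilobase (rank 7 of 22048 genes) and 0% of such windows, mt-Co1, the catalytic subunit of complex IV, with 30.8% of such windows, 922 CPM per kilobase (rank 17), and mt-Nd1 of complex I 615 CPM per kilobase (rank 36). mt-Nd4, with 60.8% of its windows elsewhere, still had 276.6 CPM per kilobase. mt-Atp8 lies in the block too and had 0.195 CPM per kilobase, although none of its windows was found in another annotated gene; the copied block has 233 bases between Gm10925 and Gm28661 in the corresponding place, whose sequence was not tested. The highest count of a block gene in any library was 81 and the lowest count of the 7 other mitochondrial genes was 953. The copies themselves drew 0 to 31 counts in the pre-Treg libraries, and how reads that match both places were counted is not given in the sources used here. What follows about single mitochondrial genes therefore rests on mt-Nd1, mt-Nd2, mt-Co1, mt-Nd4, mt-Nd5, mt-Nd6 and mt-Cytb. Medians and counts over the tested mitochondrial genes below also include block genes. These are mt-Nd3 in every comparison, and mt-Co2, mt-Co3 and mt-Atp6 where 11 genes were tested.

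**Figure D1:**
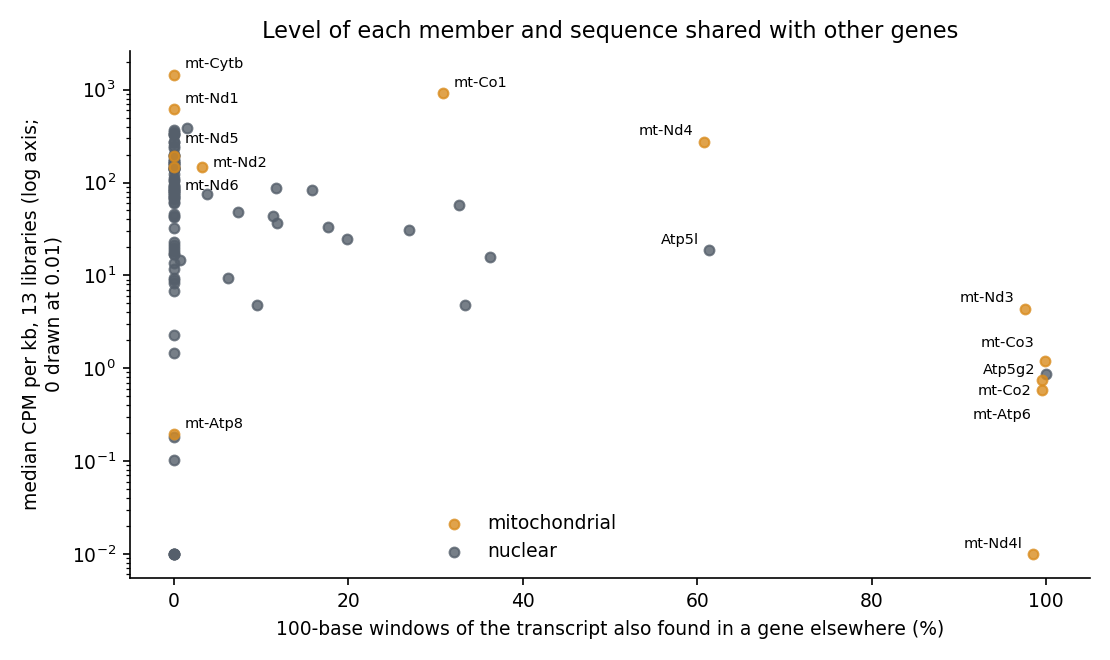
Median level of each member over the 13 libraries (CPM per kilobase, log axis, a level of 0 drawn at 0.01) against the percent of its 100-base windows found in another annotated gene. The 5 mitochondrial genes at or above 80% and the nuclear Atp5g2 lie at 4.38 CPM per kilobase or lower, whereas mt-Cytb, mt-Co1 and mt-Nd1 are at the top.

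Among the nuclear members, Atp5g2 had copies of all windows of the transcript searched and 0.861 CPM per kilobase. Windows come from a single transcript per gene, of 441 bases for Atp5g2, whereas its level uses the deposited gene length of 1675 bases. The rest of that length was not searched for copies. The 16 nuclear members with 1 to 80% of windows elsewhere had a median of 35.0 CPM per kilobase (4.75 to 383), and the 71 with under 1% a median of 81.6 CPM per kilobase. By complex, the highest and lowest tested nuclear members per kilobase were Ndufa1 (347) and Ndufb4 (4.75) in complex I, Uqcr10 (235) and Uqcrq (69.3) in complex III, Cox6a1 (383) and Cox6a2 (0.103) in complex IV, and Atp5b (367) and Atp5g2 (0.861) in complex V. Ndufb4 and Atp5l had 33.4% and 61.3% of their windows in other genes, so their levels are uncertain. Atp5b encodes the catalytic beta subunit of ATP synthase and Cox6a1 the widely expressed form of a small complex IV subunit.

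Cox6a1 is shown with its promoter because NRF1, a regulator of many nuclear respiratory genes, is known to bind a GC-rich palindrome whose letters CGCATGCGC were searched for on both strands. The 250 bases before its start (RefSeq, GRCm38.p6, chr5:115348959-115349208, minus strand) hold it on both strands, overlapping, in capitals, beginning at position -162 from the start.
Cox6a1 promoter: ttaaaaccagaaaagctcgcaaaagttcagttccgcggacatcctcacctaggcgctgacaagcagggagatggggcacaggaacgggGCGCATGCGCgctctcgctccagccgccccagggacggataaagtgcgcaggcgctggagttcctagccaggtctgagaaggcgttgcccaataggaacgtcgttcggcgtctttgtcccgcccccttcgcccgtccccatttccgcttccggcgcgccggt
Of the 88 nuclear members, 70 had a promoter in the table, and 7 of these (10%) held CGCATGCGC, namely Atp5g2, Atp5k, Atp5l, Cox6a1, Ndufa11, Ndufa8 and Ndufaf4, against 1.49% of all 27025 promoters. With the fourth base open (CGCNTGCGC, which includes the first motif) 12 of 70 (17.1%) had a match, against 5.33% of all. The ETS motif CCGGAAG was in 11 of 70 (15.7%), against 7.05%, and the YY1 motif AAGATGGCG in 0 of 70, against 0.607%.

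The share of counts on the members set the scale of the comparisons. The 13 mitochondrial genes took 0.810, 0.388 and 0.508% of counts in KO pre-Tregs and 0.658 and 0.965% in WT pre-Tregs. In de novo Tregs they took 0.294 and 0.298% in KO and 0.429 and 0.460% in WT. In splenic Tregs they took 0.449 and 0.507% in KO and 0.404 and 0.512% in WT. Both KO libraries were thus below both WT libraries in de novo Tregs, and the genotypes overlapped at the other stages.

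The 88 nuclear members took 1.42, 1.68 and 1.35% in KO and 1.31 and 1.43% in WT pre-Tregs, 1.26 and 1.17% in KO and 1.25 and 1.26% in WT de novo Tregs, and 1.15 and 1.28% in KO and 1.35 and 1.34% in WT splenic Tregs. On the log2 scale the ratio of mitochondrial to nuclear CPM was -0.81, -2.11 and -1.41 in KO and -0.99 and -0.56 in WT pre-Tregs, -2.10 and -1.97 in KO and -1.54 and -1.45 in WT de novo Tregs, and -1.36 and -1.34 in KO and -1.74 and -1.39 in WT splenic Tregs. In de novo Tregs the genotypes did not overlap in this ratio, with KO lower. In splenic Tregs they nearly touched, at -1.36 in a KO and -1.39 in a WT library. Leaving out a library there moved the KO minus WT difference between 0.04 and 0.39, so no reversal between the stages is read. The ratio over members was given no test.

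**Figure D2:**
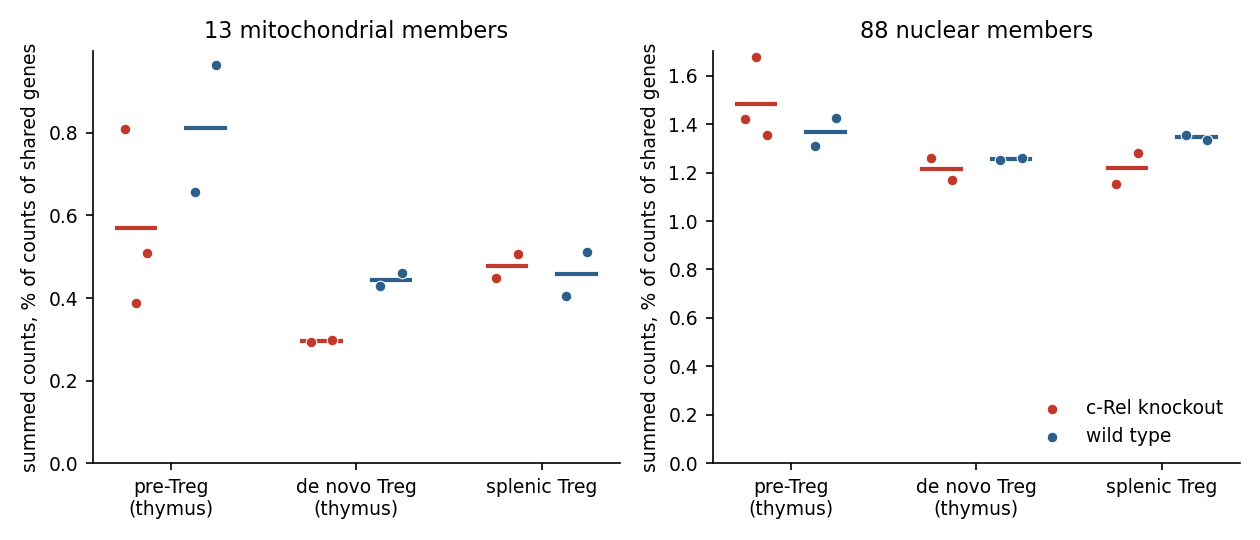
Percent of a library's counts on shared genes taken by the 13 mitochondrial members (left) and the 88 nuclear members (right), by stage, KO left of WT (points are libraries, horizontal lines group means, linear axes from 0). In de novo Tregs the mitochondrial share is 0.294 and 0.298% in KO and 0.429 and 0.460% in WT, and KO pre-Treg replicate 2 has the highest nuclear and the lowest mitochondrial share of its stage.

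KO pre-Treg replicate 2 bears on every pre-Treg value. Its nuclear members summed to 16773 CPM against 13090 to 14268 CPM in the other 4 pre-Treg libraries, and its mitochondrial members to 3876 CPM against 5083 to 9654 CPM. Of the 79 nuclear members with at least 10 CPM, 50 were above all 4 other libraries and 20 below them, and 6 of 7 mitochondrial members were below. Over all 9637 genes at that level 3278 (34.0%) were above and 3794 below. Cytosolic ribosomal protein genes took 1.20% of its counts, against 0.645 to 0.816% in the other pre-Treg libraries.

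In de novo Tregs, the stage at which thymocytes have just switched on Foxp3, mitochondrial transcripts were lower in KO and nuclear ones showed no called change. Of the 11 mitochondrial genes tested, 7 fell and the other 4 had negative log2 fold changes without passing the test, and 0 of 82 nuclear members were called (called means an adjusted p under 0.05 in edgeR's quasi-likelihood test with Benjamini-Hochberg adjustment over all genes). At an unadjusted p under 0.05 edgeR gave 6 nuclear members, and DESeq2 and limma-voom called 0 nuclear and 7 mitochondrial ones. The background was 766 of 11855 genes, 6.46%, in either direction and 3.54% lower. The median log2 fold change, KO over WT, was -0.64 over the mitochondrial members, -0.05 over the nuclear members (58 of 82 below 0) and -0.003 over all genes tested.

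mt-Cytb had 1076 and 1085 CPM in KO against 1588 and 1659 CPM in WT (log2 fold change -0.57, SE 0.0641, adjusted p = 0.000287, edgeR). mt-Co1 had 963 and 1043 CPM in KO against 1424 and 1530 CPM in WT (log2 fold change -0.54, SE 0.0721, adjusted p = 0.00098, edgeR). Neither gene overlapped between genotypes. KO also lay wholly below WT for 31 of the 88 nuclear members, and the share over all genes was not counted.

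Of the complex I genes of mitochondrial DNA, which encode membrane-arm subunits, mt-Nd1, mt-Nd2, mt-Nd4, mt-Nd5 and mt-Nd6 fell. mt-Nd1 had 367 and 340 CPM in KO against 537 and 578 CPM in WT (log2 fold change -0.64, SE 0.0746, adjusted p = 0.00037, edgeR). mt-Nd5 had 184 and 179 CPM in KO against 281 and 305 CPM in WT (log2 fold change -0.68, SE 0.0768, adjusted p = 0.00031, edgeR). mt-Nd5, which carries a proton-pumping module of the membrane arm, was the mitochondrial gene with the most negative called value.

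mt-Nd2 had 87.0 and 80.8 CPM in KO against 112.3 and 135.4 CPM in WT (log2 fold change -0.55, SE 0.101, adjusted p = 0.00777, edgeR), and it lost its call without WT replicate 2 (adjusted p = 0.0703; 0.000103 to 0.988 over 13 alternatives). mt-Nd4 had 222 and 213 CPM in KO against 291 and 320.0 CPM in WT (log2 fold change -0.48, SE 0.0778, adjusted p = 0.00382, edgeR). mt-Nd6, the only protein gene on the light strand, had 37.9 and 37.6 CPM in KO against 54.7 and 65.3 CPM in WT (log2 fold change -0.65, SE 0.11, adjusted p = 0.00454, edgeR). Across the 7 genes KO levels were 0.625 to 0.719 of WT levels, in all 3 complexes they belong to. The strand setting of the counting was not stated, so counts of mt-Nd6 may include RNA of the other strand.

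The genes of the copied block were counted too rarely to be read. mt-Nd3 had 0.52 and 0.67 CPM in KO against 1.02 and 1.27 CPM in WT (log2 fold change -0.93), and mt-Co3, mt-Co2 and mt-Atp6 had log2 fold changes of -0.86, -0.75 and -0.51, with edgeR adjusted p between 0.381 and 0.741 for these genes. mt-Atp8 and mt-Nd4l did not pass the filter on low counts.

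**Figure D3:**
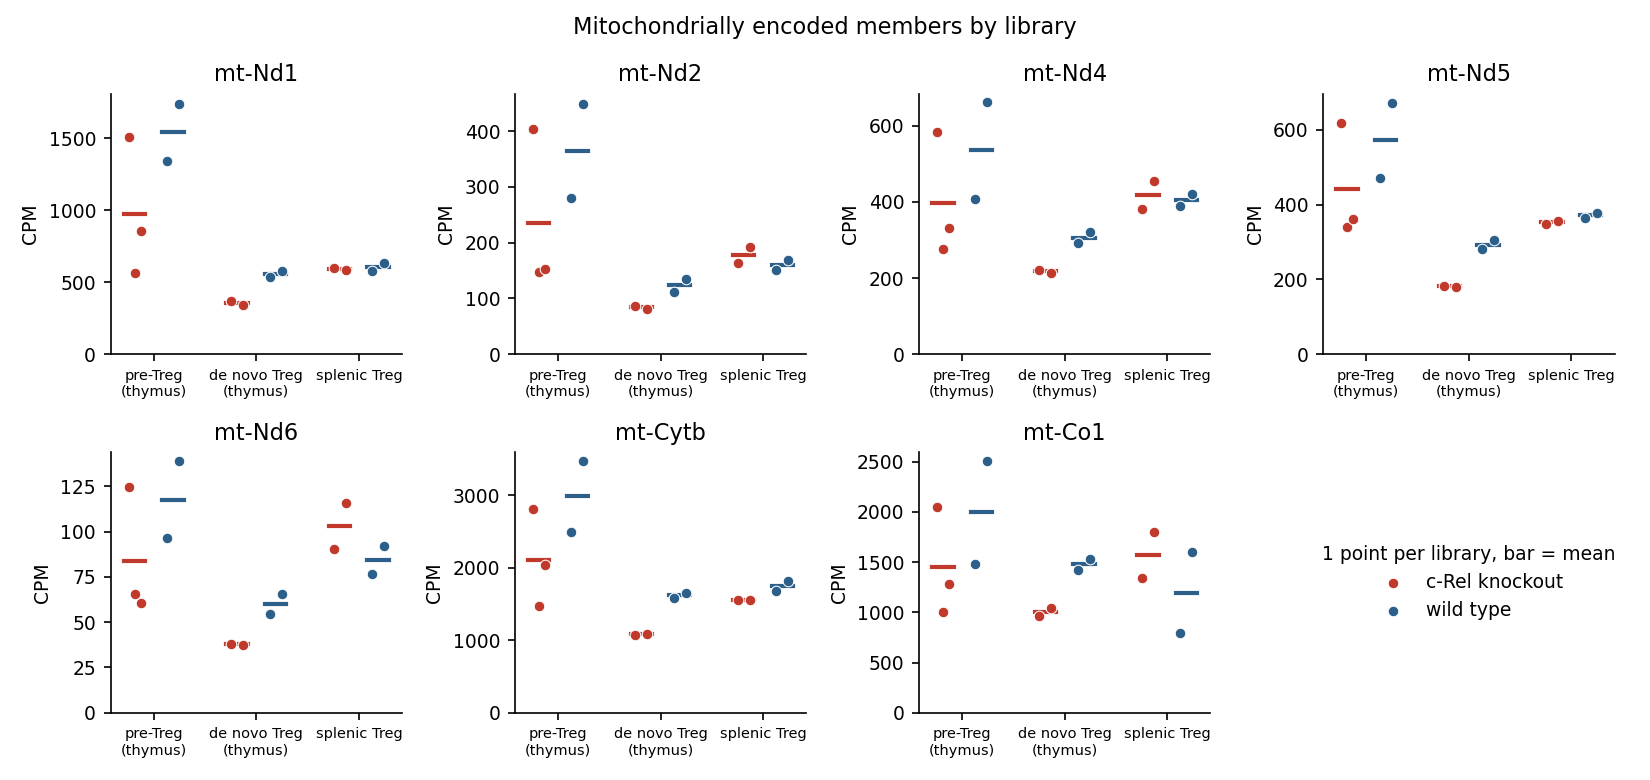
CPM (linear axes from 0) of the 7 well-counted mitochondrial genes in each library, by stage, KO left of WT (points are libraries, horizontal lines group means). In de novo Tregs KO lies below WT without overlap for each of the 7 genes. They run from mt-Cytb (1076 and 1085 CPM in KO, 1588 and 1659 CPM in WT) down to mt-Nd6 (37.9 and 37.6 CPM in KO, 54.7 and 65.3 CPM in WT). KO also lies wholly below WT for 31 of the 88 nuclear members, and the share over all genes was not counted.

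The 7 calls rest on the spread within de novo Tregs, where the biological coefficient of variation was 0.0939, against 0.284 in pre-Tregs and 0.131 in splenic Tregs. When all 13 libraries shared a single spread of 0.189, 0 of the 7 remained called, with the same direction (adjusted p = 0.345 to 0.988). Leaving out 1 of the 4 libraries in turn, which left 1 library in a genotype, kept the direction of all 7.

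The nuclear members with the largest differences in de novo Tregs, none of them called, were Ndufb11 (log2 fold change 0.27, adjusted p = 0.117 in edgeR), Cox7c (0.17) and Ndufb10 (0.14) above 0, and Cox7a1 (-2.09, adjusted p = 0.168), Cox6b2 (-0.43) and Atp5g2 (-0.42) below 0. Ndufb11 and Ndufb10 are accessory subunits of the complex I membrane arm and Cox7c a small structural subunit of complex IV. Ndufb11 had 153 and 130.1 CPM in KO against 119.1 and 117.6 CPM in WT. By complex, the median nuclear log2 fold change was -0.01 for the 29 accessory complex I subunits, 0.02 for the 7 core ones, -0.05 for complex III, -0.13 for complex IV and -0.05 for complex V.

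Other gene sets moved in the same comparison. Cytosolic ribosomal protein genes, which build the ribosomes that make the nuclear-encoded subunits, fell for 25 of 82 tested members (median log2 fold change -0.30; Rpl41 -0.57 and Rps26 -0.58), and took 0.803 and 0.767% of counts in KO against 0.958 and 0.974% in WT. Erythroid and platelet markers summed to 0.637 and 1.19 CPM in KO against 106.1 and 3.01 CPM in WT (2 of 3 tested fell; Hba-a2 was at 0 in both KO libraries). CD8 T and NK markers summed to 77.7 and 62.2 CPM in KO against 220 and 214 CPM in WT. Of the 8 tested, 2 fell (Nkg7 by 2.88 on the log2 scale), 3 had log2 fold changes above 0, and the median was -0.34. The stroma list summed to 309 and 308 CPM in KO against 231 CPM in each WT library (2 of 3 rose), the myeloid list to 147 and 125 CPM in KO against 158 and 155 CPM in WT (0 of 8 called) and the B and plasma list to 37.5 and 33.3 CPM in KO against 32.6 and 30.4 CPM in WT (1 of 4 rose, 1 fell). The part of these lists in the mitochondrial result was not tested, and in sorted bulk samples fewer cells of a type and less RNA per cell cannot be told apart.

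The nuclear genes that serve mitochondrial DNA and RNA showed no called change in KO de novo Tregs. Of the maintenance and transcription factors of mitochondrial DNA 0 of 15 were called (median log2 fold change 0.05), of the RNA processing and stability factors 0 of 19 (0.003), of complex II, cytochrome c and carriers 0 of 13, of assembly factors outside the name rule 0 of 38, of the tricarboxylic acid cycle 0 of 16, of transcriptional regulators such as Nrf1 and Gabpa 0 of 12, and of the mitochondrial ribosome 0 of 76. Of 24 proliferation genes 1 rose (Rrm2, 0.37).

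In pre-Tregs, CD4 thymocytes before Foxp3 is switched on, no gene was called between KO and WT (0 of 14746, 0%; 969 had an unadjusted p under 0.05 in edgeR, none of them a member, and DESeq2 and limma-voom called 0 members). The 8 mitochondrial genes tested had log2 fold changes between -0.69 (mt-Nd1) and -0.32 (mt-Nd3), with a median of -0.50 (adjusted p = 0.72 to 0.827). mt-Nd2 (-0.66), mt-Co1 (-0.48), mt-Nd4 (-0.46), mt-Nd5 (-0.40), mt-Nd6 (-0.52) and mt-Cytb (-0.53) lay between. The libraries overlapped: mt-Cytb had 2814, 1471 and 2039 CPM in KO against 2500 and 3478 CPM in WT, and mt-Co1 2051, 1005 and 1283 CPM in KO against 1477 and 2510 CPM in WT. KO replicate 1 lay between the WT libraries for both genes and KO replicate 2 was the lowest.

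Nuclear members in pre-Tregs had a median log2 fold change of 0.12, with 55 of 82 above 0. The largest were Atp5l (1.08), Cox6b2 (0.84) and Cox8a (0.69), and at the other end Ndufb4 (-0.61), the core subunit Ndufv2 (-0.44) and the assembly factor Ndufaf4 (-0.33). Cox8a, the common form of a small complex IV subunit, had 144, 317 and 162 CPM in KO against 118 and 140.5 CPM in WT, and KO replicate 2 was the highest of the 5. Without that library the count of called members was still 0.

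In splenic Tregs, the mature peripheral stage, 168 of 12264 genes were called (1.37%), among them 0 of 82 nuclear and 0 of 11 mitochondrial members (6 and 0 at an unadjusted p under 0.05 in edgeR; DESeq2 and limma-voom also called 0). The mitochondrial genes had a median log2 fold change of 0.05 with 7 of 11 above 0: mt-Co1 0.40, mt-Nd6 0.29 and mt-Cytb -0.17 among them. mt-Co1 had 1344 and 1801 CPM in KO against 794 and 1599 CPM in WT, and WT replicate 1 was the lowest of the 4. Without WT replicate 2 mt-Co1 was called higher in KO (log2 fold change 0.99, edgeR adjusted p = 0.000139; over 14 alternatives the highest was 1), and without KO replicate 1 mt-Nd2 and mt-Nd6 were called higher. mt-Cytb had 1556 and 1557 CPM in KO against 1681 and 1818 CPM in WT, and KO lay below WT. mt-Nd1 had 597 and 588 CPM in KO against 580 and 635 CPM in WT. mt-Nd2 had 163 and 193 CPM in KO against 151 and 169.6 CPM in WT, and mt-Nd4 381 and 455 CPM in KO against 389.7 and 419.6 CPM in WT. These 3 genes overlapped between genotypes. mt-Nd5 had 349 and 355 CPM in KO against 365 and 378 CPM in WT, and mt-Nd6 90.7 and 115.6 CPM in KO against 76.7 and 92.3 CPM in WT.

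Of the 82 nuclear members tested in splenic Tregs 71 were below 0, with a median log2 fold change of -0.11. The summed level of the 88 nuclear members was 12177 ± 906 CPM in KO and 13457 ± 126 CPM in WT (SD, n = 2 each). KO replicate 1 was lower (11536 CPM) than KO replicate 2 (12818 CPM). The number of nuclear calls moved with the KO library left out. Each such fit had 1 KO library, and the share of all genes called in it is not given here. No change particular to the members is therefore read from these fits. The extremes were Atp5g2 (0.31), Ndufaf4 (0.29) and Atp5sl (0.29) above 0 and Cox7a1 (-1.54), the assembly factor Ndufaf2 (-0.27) and the accessory subunit Ndufs6 (-0.26) below 0. Proliferation genes fell in the same comparison for 11 of 24 members, Hspa1a and Hspa1b rose, and B and plasma markers summed to 94.0 and 60.1 CPM in KO against 40.5 and 50.5 CPM in WT; their part in the nuclear values was not tested.

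**Figure D4:**
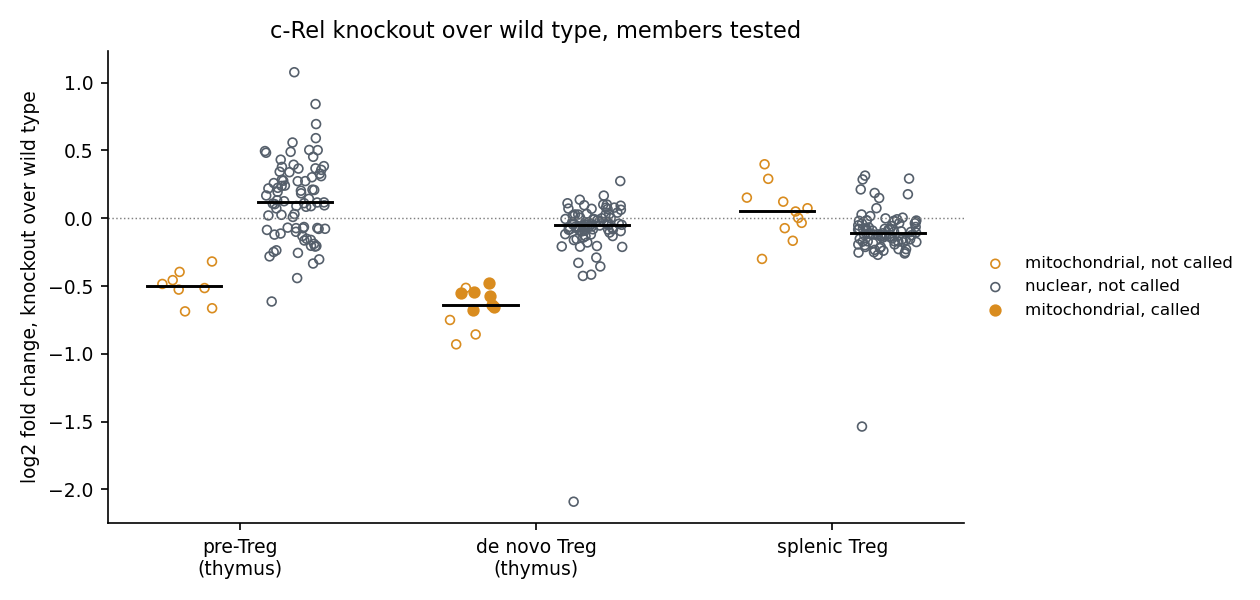
Log2 fold change, KO over WT, of the tested members at each stage, nuclear and mitochondrial genes apart (points are genes, filled where called at an adjusted p under 0.05, horizontal lines medians). The mitochondrial median is -0.50 (pre-Tregs), -0.64 (de novo Tregs) and 0.05 (splenic Tregs), and the nuclear median 0.12, -0.05 and -0.11.

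With a single genotype effect fitted over the 3 stages, 111 of 13058 genes were called (0.85%) and 0 members. The nearest was mt-Cytb (log2 fold change -0.43, SE 0.123, edgeR adjusted p = 0.155), which DESeq2 called (adjusted p = 0.0441) and edgeR called without KO pre-Treg replicate 1 (adjusted p = 0.0468; 0.0441 to 0.395 over 22 alternatives). The median was -0.31 over the mitochondrial members.

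Whether the genotype effect differed between stages was tested directly. The interaction called 21 of 13058 genes (0.161%) and 0 members (lowest member adjusted p = 0.519 for mt-Nd6, edgeR; 1 mitochondrial member without KO pre-Treg replicate 1). The genotype effect in de novo Tregs minus that in splenic Tregs was added after seeing the data. It called 1 of 13058 genes (0.00766%) and 0 members. In this contrast 11 of 11 mitochondrial genes, block genes included, were below 0 with a median of -0.70, against a nuclear median of 0.07. Mitochondrial genes are transcribed together and were read in the same libraries, so their shared sign is not a set of independent results. The fall of mitochondrial transcripts in KO de novo Tregs is therefore not shown to differ from the other stages.

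Between stages the count tables, and for the spleen also the tissue, change together with the stage and cannot be told apart from it. The comparisons below use 1 spread from all 13 libraries and 83 nuclear and 11 mitochondrial members. The comparisons of de novo Tregs with pre-Tregs and of splenic Tregs with de novo Tregs share the de novo libraries.

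In de novo Tregs relative to pre-Tregs, 5 mitochondrial genes of complexes I and III were lower in both genotypes, while the share of nuclear members called lower was close to that of all genes. In KO, 6 of 11 mitochondrial and 15 of 83 nuclear members were lower and no nuclear member was higher (17% and 15.4% of all genes were lower and higher). In WT, 5 mitochondrial and 14 nuclear members were lower, and 9 nuclear members and 2 mitochondrial ones of the copied block were higher (14.7% and 16.1% of all genes were lower and higher). The nuclear median log2 fold change was -0.09 in KO and 0.07 in WT, and the all-gene median -0.06 in KO and -0.002 in WT.

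mt-Nd1 had 367 and 340 CPM in KO de novo Tregs against 1508, 568 and 854 CPM in KO pre-Tregs (log2 fold change -1.25, SE 0.278, adjusted p = 0.00496, edgeR). In WT it had 537 and 578 CPM in de novo Tregs against 1343 and 1741 CPM in pre-Tregs (log2 fold change -1.31, SE 0.297, adjusted p = 0.00727, edgeR). The stages did not overlap in either genotype.

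mt-Nd2 (-1.26 in KO and -1.40 in WT), mt-Nd5 (-1.07 and -0.80), mt-Nd6 (-0.93 and -0.81) and mt-Cytb (-0.75 and -0.72) were called lower in both genotypes, with edgeR adjusted p between 0.0026 and 0.045. mt-Nd3 was called lower in KO (-1.64, adjusted p = 0.012, edgeR) and had -1.05 in WT (adjusted p = 0.0857, edgeR). mt-Co1 (-0.31 in KO and -0.27 in WT) and mt-Nd4 (-0.65 in each) were not called in either genotype (edgeR adjusted p between 0.068 and 0.563). In WT, mt-Co3 and mt-Atp6, both in the copied block, passed the test as higher. Both WT pre-Treg libraries had 0 counts for them. Their levels of 1.48 and 0.556 CPM in WT de novo Tregs lay 6.48-fold and 2.44-fold above a floor of 3 counts per library (0.228 CPM). KO pre-Treg replicate 2, however, had 24 and 9 counts for them, and 31 and 13 for their copies Gm28437 and Gm10925. Detection thus varied by library within a stage, and no rise is read for these 2 genes.

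The nuclear members that were lower in both genotypes were 9 in number, 60.0% of the 15 in KO and 64.3% of the 14 in WT. The WT and KO libraries are different, but the tests share a spread. The same overlap over all genes was not counted, so these shares are not shown to be particular to the members. Among the 9 were the complex I accessory subunits Ndufa5, Ndufab1, Ndufb5, Ndufc1 and Ndufc2, the assembly factor Ndufaf4 and the complex IV subunit Ndufa4. The rest were Atp5f1 and Atp5g3 of complex V, which encode a stator and a rotor subunit. Ndufaf4 had 21.0 and 19.5 CPM in KO de novo Tregs against 58.01, 30.6 and 39.8 CPM in KO pre-Tregs (log2 fold change -0.87), and 22.5 and 20.2 CPM in WT de novo Tregs against 51.5 and 54.5 CPM in WT pre-Tregs (-1.16, SE 0.221, adjusted p = 0.00299, edgeR). Ndufc2 had 55.3 and 54.4 CPM in KO de novo Tregs against 127.1, 76.1 and 87.0 CPM in KO pre-Tregs, and 57.1 and 60.3 CPM in WT de novo Tregs against 103.1 and 121.6 CPM in WT pre-Tregs (-0.78 in WT, SE 0.192, adjusted p = 0.011, edgeR). Neither gene overlapped between these stages, and KO pre-Treg replicate 2 was the lowest KO pre-Treg library for both.

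The largest called nuclear falls in KO were Cox7a1 (log2 fold change -2.82, SE 0.793, adjusted p = 0.0171), Cox6b2 (-1.35, SE 0.356, adjusted p = 0.0123) and Ndufaf2 (-1.01, SE 0.212, adjusted p = 0.00339), all by edgeR. Ndufaf2 had 8.60 and 8.68 CPM in KO de novo Tregs against 20.5, 22.3 and 17.2 CPM in KO pre-Tregs. The others lower in KO and not in WT were the assembly factor Ndufaf6 (-0.55), the Rieske iron-sulphur protein Uqcrfs1 of complex III (-0.44) and Cox7a2 (-0.51); the difference between the genotypes is the interaction above, which called none of them.

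In WT the largest called falls were Ndufb4 (log2 fold change -1.29, SE 0.347, adjusted p = 0.0159, edgeR), Ndufaf4 and Ndufc2. The largest called rises in WT were Atp5l (1.41, SE 0.438, adjusted p = 0.0294), Ndufs7 (0.87, SE 0.267, adjusted p = 0.0274) and Ndufb7 (0.82, SE 0.29, adjusted p = 0.048), by edgeR. Ndufs7, a core iron-sulphur subunit of complex I, had 192 and 196 CPM in WT de novo Tregs against 111.0 and 125.0 CPM in WT pre-Tregs. The other 6 risers were Uqcr11, Ndufa13, Cox7a2l, Ndufs8, Uqcrc1 and Ndufs3, between 0.46 and 0.79, and the other 11 lower members lay between -0.35 and -0.78. Complex I thus held both directions in WT, core and accessory subunits included.

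These stage counts moved with single libraries. The share of all genes called in each fit below is not given here, so the counts do not show a change particular to the members. Leaving out 1 library at a time gave 3 to 53 nuclear and 1 to 10 mitochondrial calls in KO, and 1 to 50 and 0 to 9 in WT. Without KO pre-Treg replicate 2 there were 53 nuclear calls (26 higher, 27 lower) and 10 mitochondrial ones (3 higher, 7 lower) in KO, and 50 nuclear calls (28 higher, 22 lower) in WT. Without KO pre-Treg replicate 1 there were 38 nuclear calls in WT. Without KO de novo replicate 1 or 2 there were 3 nuclear calls each and 2 or 1 mitochondrial ones in KO, and without WT de novo replicate 1 or 2 there were 1 or 2 nuclear and 0 or 1 mitochondrial calls in WT. Without WT pre-Treg replicate 1 or 2 there were 8 or 1 nuclear and 4 or 0 mitochondrial calls in WT. Without either KO de novo library WT had 14 nuclear calls, and without either WT splenic library 13. Scaling by library totals alone moved the all-gene median from -0.058 to -0.258 in KO and from -0.0015 to -0.159 in WT, turned the nuclear median in WT to -0.09, and brought the share of called genes that were higher to 27.9% (47.6% with TMM) in KO and 35.3% (52.3% with TMM) in WT, so the directions of small nuclear changes depend on scaling.

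**Figure D5:**
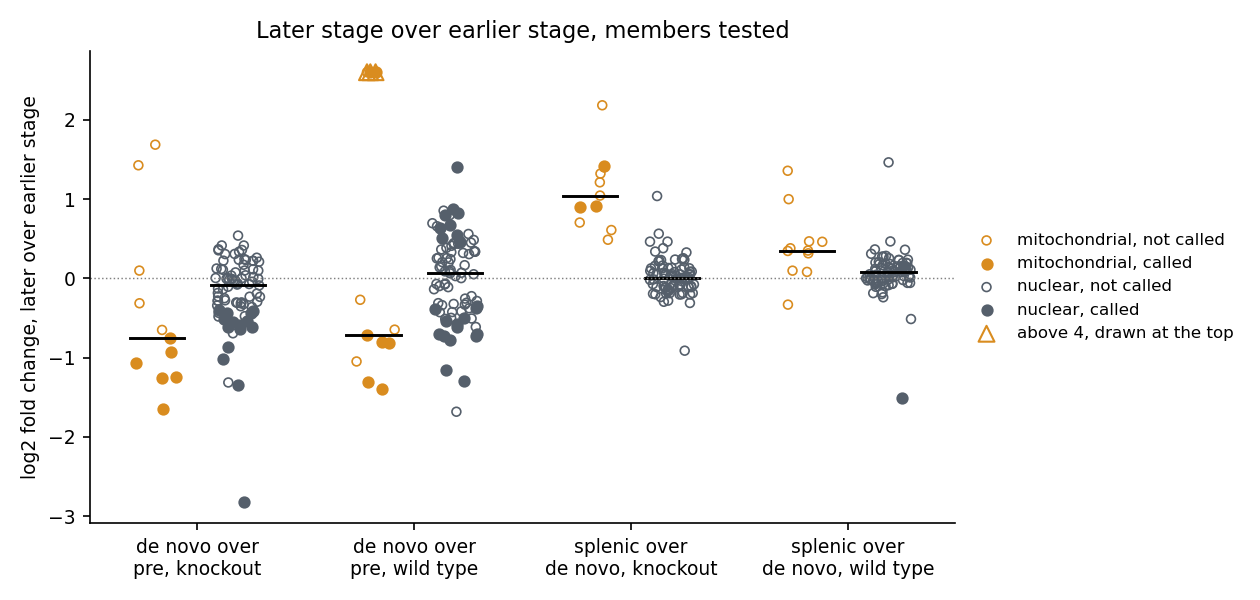
Log2 fold change of the tested members between stages (later over earlier) in KO and WT, nuclear and mitochondrial genes apart (filled points were called, lines are medians; triangles at the top mark 3 mitochondrial values above 4, in genes with 0 counts in WT pre-Tregs). De novo over pre-Tregs has 15 lower nuclear calls in KO and 14 lower and 9 higher in WT, and splenic over de novo Tregs has 3 higher mitochondrial calls in KO.

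Other mitochondrial gene lists showed both directions in de novo Tregs relative to pre-Tregs. Of 15 maintenance and transcription genes of mitochondrial DNA, 2 rose and 2 fell in KO and 2 rose and 3 fell in WT: Mgme1, a mitochondrial exonuclease, fell (-0.86 in KO and -0.90 in WT), Polg2, the accessory subunit of the DNA polymerase, rose (0.73 and 0.60), and Tfam, the packaging and transcription factor of mitochondrial DNA, fell in KO (-0.47). Of 19 RNA processing genes 2 rose and 2 fell in KO and 2 rose and 4 fell in WT, Ptcd1 rising in both (0.60 and 0.77) and Lrpprc, which stabilises mitochondrial messenger RNA, falling in KO (-0.50). Of 13 regulators 4 rose and 2 fell in KO and 5 rose and 2 fell in WT, with Myc higher (1.26 and 1.59) and Yy1 lower (-0.73 and -0.93). Of 77 mitochondrial ribosomal genes 11 fell and 0 rose in KO, and 7 fell and 4 rose in WT. In the tricarboxylic acid cycle Suclg2 rose (0.71 and 0.94) and Idh3a fell (-0.43 and -0.48), and the complex V associated Usmg5 fell (-1.04 and -1.51). Of the 38 assembly factors outside the name rule 4 rose and 2 fell in KO and 4 rose and 3 fell in WT, the copper chaperone Cox17 rising in KO (0.64) and Tmem70 of complex V assembly falling in WT (-0.82). Proliferation genes fell for 24 of 24 in KO and 19 of 24 in WT. Of the cytosolic ribosome 23 of 82 genes were lower and 0 higher in KO, and 6 lower and 24 higher in WT, and of 13 heat shock and dissociation genes 4 fell and 0 rose in KO, and 1 fell and 4 rose in WT. CD8 T and NK markers summed to 77.7 and 62.2 CPM in KO de novo Tregs against 226, 142 and 172 CPM in KO pre-Tregs, and to 220.3 and 214 CPM in WT de novo Tregs against 127 and 160 CPM in WT pre-Tregs (5 of 9 fell and 1 rose in KO, 2 fell and 2 rose in WT). Myeloid markers fell for 3 of 12 in KO and rose for 1 of 12 in WT, and erythroid markers fell for 1 of 6 in KO and 0 in WT. B and plasma markers (1 of 7) and thymic stroma markers (1 of 3) rose in each genotype. The part of these lists in the member changes was not tested.

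In splenic Tregs relative to de novo Tregs, mt-Nd4, mt-Nd5 and mt-Nd6 were higher in KO, and this count depended on single libraries. Of 11 mitochondrial genes 3 rose in KO (6.48% of all genes rose). All 11 log2 fold changes, those of the block genes included, were above 0 with a median of 1.04. mt-Nd6 had 90.7 and 115.6 CPM in KO splenic Tregs against 37.9 and 37.6 CPM in KO de novo Tregs (log2 fold change 1.41, SE 0.285, adjusted p = 0.00645, edgeR). mt-Nd5 rose by 0.92 (SE 0.229, adjusted p = 0.0189, edgeR) and mt-Nd4 by 0.90 (SE 0.277, adjusted p = 0.0493, edgeR). No nuclear member was called in KO (median 0.01; 12.9% of all genes were called in either direction).

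In WT, splenic over de novo, 0 of 11 mitochondrial genes were called (3.5% of all genes rose). Block genes included, 10 of 11 were above 0, with a median of 0.35. Of 83 nuclear members 1, Cox6b2, was called lower (log2 fold change -1.52, SE 0.391, adjusted p = 0.0332, edgeR), against 3.95% of all genes. That call was lost without any 1 of the de novo or WT splenic libraries, and without KO pre-Treg replicate 2 there were 3 nuclear calls. The KO count moved with single libraries: leaving out 1 library gave 0 to 8 mitochondrial calls, 0 without KO de novo replicate 1, KO de novo replicate 2 or KO splenic replicate 2, 1 without KO splenic replicate 1, and 7 or 8 without KO pre-Treg replicate 1 or 2. With the libraries of the compared groups alone, 8 mitochondrial members were called in KO and 4 in WT, all higher. Nuclear calls were then 1 in KO and 17 in WT (13 higher, 4 lower). The share of all genes called in these alternative fits is not given here, so the counts do not show a change particular to the members. Cytosolic ribosomal protein genes rose for 25 of 82 members in the KO comparison and 6 of 82 in the WT comparison, and Top1mt, the mitochondrial topoisomerase, rose by 0.90 in KO. Proliferation genes fell for 20 of 24 in KO and 0 of 24 in WT. Of 9 CD8 T and NK markers 2 rose and 2 fell in KO, and 3 rose and 1 fell in WT, and myeloid and thymic stroma markers rose for 1 of 12 and 1 of 3 in WT. The part of these lists in the member changes was not tested.

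Isoforms of complex IV that are known from muscle, lung or testis were rare beside their common forms. Cox6b2, the testis form (chr7:4751792-4753094, minus strand, as in the count tables), had 9.04, 5.70 and 6.17 CPM in KO and 2.73 and 4.94 CPM in WT pre-Tregs, 2.23 and 2.48 CPM in KO and 3.86 and 2.55 CPM in WT de novo Tregs, and 1.42 and 1.15 CPM in KO and 1.29 and 0.99 CPM in WT splenic Tregs. Its group means were lower at each later stage in both genotypes, while Cox6b1, the common form, lay between 203 and 311 CPM. Cox7a1, the heart and muscle form (chr7:30184144-30186078, plus strand), had 1.29, 1.69 and 1.23 CPM in KO and 1.06 and 1.52 CPM in WT pre-Tregs, 0.04 and 0.30 CPM in KO and 0.73 and 0.78 CPM in WT de novo Tregs, and 0.43 and 0.09 CPM in KO and 0.93 and 0.61 CPM in WT splenic Tregs; its common form Cox7a2 lay between 113 and 243 CPM. Cox4i2 reached at most 0.46 CPM and Cox6a2 at most 0.52 CPM, against 286 to 540 CPM for Cox4i1 and 207 to 439 CPM for Cox6a1. Cox8b reached 0.06 CPM in 1 library and was at 0 in the others, and Cox7b2 and Cox8c were at 0 in all 13, against 118 to 317 CPM for Cox8a and 119 to 217 CPM for Cox7b; at these depths 3 counts are 0.0854 to 0.228 CPM, counting error only.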

How the data were processed

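RNA-seq libraries of sorted cells were aligned to GRCm38 with STAR 2.5.2 and counted per gene with featureCounts of Subread 1.5.2, with Picard 2.9.0, FastQC, MultiQC and limma also named, per the submitters' processing notes. The values are the authors' deposited raw counts per gene, in a table for each of the 3 stages, and 0 columns of these tables were left out. Neither the strand setting nor the treatment of reads with several matches was stated. A gene and its overlapping or antisense neighbour (mt-Atp8 with mt-Atp6, mt-Nd5 with mt-Nd6) may therefore share reads.

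Counts were filtered (filterByExpr, minimum count 10, minimum total 15), scaled with TMM and tested with edgeR 4.0.16 in R 4.3.3 (quasi-likelihood F-test, Benjamini-Hochberg over all genes tested). SE is the absolute log2 fold change over the square root of F. Genotype was tested within each stage; stage contrasts, the shared genotype effect and the interaction used 13 libraries. The method was tested on simulated data. Alternatives used DESeq2 1.42.0, limma 3.58.1, other scalings and filters, and left out each library. Copies of a single protein-coding transcript per member were sought with blastn 2.17.0 (at least 95% identity over 50 bases) among GENCODE M21 transcripts. In that release 76 of 101 members have the deposited start and end. Promoters are RefSeq's (GRCm38.p6).

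Named were all mitochondrial genes; nuclear members called or with the 3 largest values each way per genotype contrast; the 3 largest called rises and falls per stage contrast; the extremes per kilobase; complex IV isoforms; and up to 3 called genes of each other list. Members named outside this rule (the further members lower or higher between stages, and those held up for their function) were chosen after their values were seen. Members and lists were chosen with earlier results of these data known.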

Additional observations from a re-analysis of the deposited data

Results flagged for a closer look

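Some nuclear members had the genotypes separated in opposite directions at different stages. Every KO library lay above every WT library at a stage and below at another, or the reverse. Of the 88 nuclear members, KO lay wholly above WT for 13 and wholly below for 0 in pre-Tregs. The numbers were 5 and 31 in de novo Tregs, and 6 and 37 in splenic Tregs. With so few libraries such separations also arise by chance, and their share over all genes was not counted. The direct test of the interaction called none of the members named here, and the pairwise differences were not tested gene by gene. Values are differences of the KO over WT effect in log2(CPM + 0.1). Against pre-Tregs, the effect in de novo Tregs differed by -0.66 for Cox8a, -0.59 for Atp5e, -1.28 for Cox6b2 and -0.92 for Atp5g2. Against pre-Tregs, the effect in splenic Tregs differed by -0.77 for Cox8a, -0.58 for Cox6a1, -0.46 for Ndufs8 and -0.33 for Ndufs3. Against de novo Tregs, the effect in splenic Tregs differed by 0.68 for Atp5g2, whose coding sequence has an identical copy elsewhere. KO pre-Treg replicate 2 stood above the other pre-Treg libraries for Cox8a (317 CPM, against 144 and 162 CPM in the other KO and 118 and 140.5 CPM in the WT pre-Treg libraries) and Cox6a1 (439 CPM, against 233 and 250.5 CPM in the other KO and 207 and 232 CPM in the WT pre-Treg libraries). It did so too for Ndufs8 (250.7 CPM, against 169 and 176 CPM in the other KO and 159 and 162 CPM in the WT libraries), Atp5e (179.8 CPM, against 125 and 118 CPM in the other KO and 91.2 and 118 CPM in the WT libraries) and Ndufs3 (65.4 CPM, against 49.7 and 50.2 CPM in the other KO and 43.7 and 47.0 CPM in the WT libraries); its part in these differences was not tested.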

How the results depend on the processing

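The 7 mitochondrial calls in de novo Tregs were each read in 13 alternative settings. With no library left out, direction and call were kept in 56 of 63 combinations of a gene with a setting. The 7 exceptions all came from 1 setting, 6 group means over all 13 libraries, which gave 0 calls. Leaving out 1 library, which left 1 library in a genotype, kept the direction of all 7. Scaling by library totals alone gave 28 nuclear calls in KO de novo over pre-Tregs, all lower. DESeq2 called 1 mitochondrial member over all stages, mt-Cytb. Fitting the libraries of the compared groups alone gave, for de novo over pre-Tregs, 4 nuclear and 2 mitochondrial calls in KO and 57 nuclear ones in WT, and for splenic over de novo Tregs 1 nuclear and 8 mitochondrial calls in KO and 17 nuclear and 4 mitochondrial ones in WT. The cause of these differences was not tested, and the share of all genes called in each of these fits is not given here. Dividing the even counts of KO pre-Treg replicate 1 by 2, chosen after seeing the data, moved no count of calls past 1.5 times.

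Leaving out 1 library gave, for de novo over pre-Tregs, 3 to 53 nuclear and 1 to 10 mitochondrial calls in KO and 1 to 50 and 0 to 9 in WT, and for splenic over de novo Tregs 0 to 2 nuclear and 0 to 8 mitochondrial calls in KO and 0 to 3 nuclear ones in WT. For genotype it gave 6 to 7 mitochondrial and 0 to 1 nuclear calls in de novo Tregs, 0 to 2 and 0 to 31 in splenic Tregs, and 0 to 1 mitochondrial calls over all stages and in the interaction. The KO minus WT difference of the log2 ratio of mitochondrial to nuclear CPM ran from -0.60 to -0.47 in de novo Tregs, -0.99 to -0.33 in pre-Tregs and 0.04 to 0.39 in splenic Tregs. The share of all genes called in each fit that left out a library is not given here. These counts of calls therefore do not show a change particular to the members.

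Replicate numbers are shared between genotypes in the titles, but same-numbered libraries did not deviate together (correlation of deviations -0.168 and -0.158 for the pairs of pre-Tregs, -0.0112 for de novo Tregs, -0.113 for splenic Tregs), so the numbers were not treated as pairs. With the replicate block the 7 mitochondrial calls in de novo Tregs stayed 7 in number, and the single nuclear call in WT splenic over de novo Tregs became 0. Crossing the numbers in splenic Tregs, chosen after seeing the data, gave 0 nuclear and 1 mitochondrial calls. Members under about 1 CPM, the genes of the copied block and the tissue-restricted complex IV isoforms among them, are limited by depth.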

Other observations

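The mitochondrial ribosomal RNAs, which are not protein genes and were counted in the pre-Treg table, can be set beside the members. mt-Rnr2, the large ribosomal RNA, had 2451, 942 and 1147 CPM in KO pre-Tregs and 1552 and 2679 CPM in WT pre-Tregs. mt-Rnr1, the small ribosomal RNA, had 169.6, 82.9 and 80.7 CPM in KO and 94.1 and 185 CPM in WT. The 22 transfer RNA genes of mitochondrial DNA summed to 10.9, 12.6 and 7.53 CPM in KO and 8.51 and 10.3 CPM in WT. The ribosomal RNAs overlapped between genotypes, and KO replicate 1 was the highest KO library for both, as for mt-Cytb and mt-Co1.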
